A study of Sus scrofa with 2 samples.

Results

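The enzymes described here attach glutathione, glucuronate or sulfate to other molecules, and their transcripts were compared between 1 liver library and 1 brain library of Rongchang pigs, a Chinese domestic breed of Sus scrofa. Members were the rows of the deposited count table whose product text names a glutathione S-transferase, a UDP-glucuronosyltransferase or a sulfotransferase, without the genes GSTZ1, UGT8 and GAL3ST1. Rows of 1 name were summed, which gave 76 genes of the 21653 names in the table. There were 19 glutathione S-transferases (GST), 14 UDP-glucuronosyltransferases (UGT) and 43 sulfotransferases. The labels give the breed and the tissue for both libraries, and no age, sex, brain region or animal, so that it is not known whether liver and brain came from the same pig. No treatment is given for either, and each tissue is 1 library made from frozen material.

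Conjugation makes hydrophobic compounds soluble, and the liver is known for it. GST enzymes join reactive compounds to the thiol of glutathione, UGT enzymes of the endoplasmic reticulum transfer glucuronate from UDP-glucuronate to drugs, bilirubin, steroids and bile acids, and cytosolic sulfotransferases (SULT) transfer sulfate from the activated donor PAPS to phenols, amines and steroids. A further group of sulfotransferases in the Golgi uses the same donor on heparan sulfate, chondroitin sulfate, other glycans and protein tyrosines, and builds parts of the cell surface and matrix instead of clearing small molecules. In brain, GST enzymes are known mainly from glia, and sulfated glycans from synapses and perineuronal nets.

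The liver library held 31724498 counts and the brain library 23796843. Levels below are counts per 1000000 counts of a library (CPM), scaled by TMM, a method that corrects for the few plasma protein transcripts that fill the liver library. With it, 1 CPM equals 21.6 counts in liver and 35.0 counts in brain. The 8 hepatocyte markers summed to 425015 CPM in liver against 314 in brain, and all 8 had counts in brain. The 8 neuronal markers summed to 14.7 CPM in liver against 8621 in brain, with counts for all 8 in liver. Of the other markers, AQP4 of astrocytes and MOG of oligodendrocytes were at 0 in liver, and KRT7 of bile ducts was at 0 in brain. In such bulk tissue, fewer cells of a type and less RNA per cell cannot be told apart. Both sample titles carry the same lane and barcode designation. Brain counts of the hepatocyte markers were between 0.0262% (ALB) and 3.40% (APOA1) of their liver counts, and liver counts of the neuronal markers between 0.0115% (NEFM) and 0.683% (SYN1) of their brain counts. The 30 members called higher in liver had brain counts at 0% to 34.3% of their liver counts (median 2.13%), and the 14 called higher in brain had liver counts at 0% to 10.96% of their brain counts (median 2.06%). The part of RNA or reads carried between the libraries in these values was not tested. Kupffer cell and macrophage markers summed to 1643 CPM in liver against 31.1 in brain, and endothelial markers to 594 against 76.5, although CLDN5 among them was called higher in brain (3.52 against 29.2 CPM).

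Without replicates there was no test. The log2 ratio of liver over brain was taken from CPM with a pseudocount of 1. Ratios of 2 and above are called higher in liver and those of -2 and below higher in brain, which is the 4-fold limit. Because of the pseudocount, a gene with few counts can lie inside this limit while its plain fold, given below without a pseudocount, is above 4. Genes under 1 CPM in both libraries were not counted, and this is the filter named below. Of the 76 members, 63 passed this filter, 30 were called higher in liver and 14 higher in brain. Among all 15706 genes at the filter, 11.3% were called higher in liver and 14.6% higher in brain. The UGT genes had 11 of 12 members at the filter called in liver (91.7%) and 0 in brain, and the GST genes had 9 of 16 in liver (56.3%) and 1 in brain (6.25%). The sulfotransferases were divided, with 10 of 35 in liver (28.6%) and 13 in brain (37.1%). Cytosolic sulfotransferases had 7 of 9 in liver (77.8%) and 1 in brain (11.1%), while Golgi sulfotransferases had 3 of 26 in liver (11.5%, close to the share of all genes) and 12 in brain (46.2%). Median log2 ratios were 2.48 for GST, 5.15 for UGT, 4.19 for cytosolic and -1.70 for Golgi sulfotransferases, against -0.02 for all genes. These medians leave out members that are low in both tissues.

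**Figure D1:**
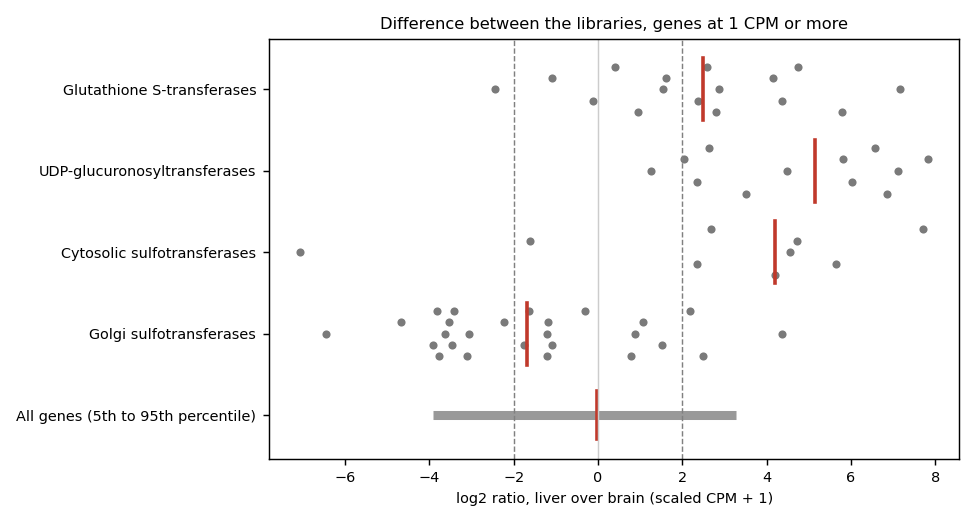
Each point is the log2 ratio, liver over brain, of 1 member that passed the filter, grouped in rows, with the group median as a red line and dashed lines at the 4-fold limit (log2 ratios of 2 and -2); points are shifted vertically only to keep them apart. The grey bar spans the 5th to the 95th percentile of all 15706 genes, -3.92 to 3.26, and the medians lie at 2.48 (GST), 5.15 (UGT), 4.19 (cytosolic sulfotransferases) and -1.70 (Golgi sulfotransferases).

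Scaling bears on these counts. With plain library size, the median of the same 15706 genes moved by -0.95 on the log2 scale, and all genes were called at 6.02% in liver and 24.2% in brain. Under that scaling the log2 ratios of 9 members called in liver were inside the limit, and those of 5 others (CHST8, CHST12, SULT2B1, TPST2 and UST) passed it in brain. Without the 50 highest genes of either library the median moved by -0.42, with 9.05% of all genes called in liver and 19.3% in brain. With median-of-ratios scaling these shares were 11.4% and 14.6%. No called member changed sign under any of these scalings. At 2-fold, 24.4% of all genes were called in liver and 27.6% in brain, and at 8-fold 5.70% and 8.54%.

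Glutathione S-transferases as a whole reached 1283 CPM in liver against 369 CPM in brain, a 3.47-fold difference (95% interval 3.40 to 3.55; exact conditional binomial intervals here and below, which cover counting error only). GSTA2, of the alpha class that handles lipid peroxides and many drugs, had 11954 counts (553 CPM) in liver against 101 counts (2.89 CPM) in brain, 192-fold higher in liver (158 to 235). GSTA4, which clears the lipid peroxidation product hydroxynonenal, had 3342 counts (155 CPM) in liver against 5832 (167 CPM) in brain. The log2 ratio of GSTA4, -0.11, was the nearest to 0 of the 63 members, though plain library size gave -1.21. These are neighbours on chromosome 7, where the table numbers 5 alpha-class genes in a row, with GSTA2 near one end and GSTA4 at the other. The 3 genes between or beside them had few counts, 12, 17 and 56 in liver against 5, 17 and 6 in brain. GSTA2 thus lay far toward liver, while its well-counted neighbour GSTA4 had similar levels in both tissues with TMM.

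The pi-class gene, LOC100739163 (glutathione S-transferase P-like), was the only GST called higher in brain. It had 517 counts (23.9 CPM) in liver against 4717 (135 CPM) in brain, 5.64-fold higher in brain (5.15 to 6.19). Pi-class enzyme is known in humans from astrocytes, bile ducts and many tissues outside the hepatocyte. The bile duct markers summed to 59.9 CPM in liver against 54.8 in brain. EPCAM and CFTR were called higher in liver, and KRT7 had 27 counts in liver and 0 in brain. KRT19 had 346 counts in liver against 666 in brain, SPP1 had 398 against 895, and SOX9 had 35 against 302. KRT7, KRT19, SPP1 and SOX9 were not called in either direction. The astrocyte markers summed to 36.4 CPM in liver against 3056 in brain, and the oligodendrocyte markers to 56.4 against 2883. The part of these cell types in the pi-class value was not tested. GSTCD, named for containing a GST C-terminal domain, was at 1.48 CPM in liver against 4.26 in brain (log2 ratio -1.08), below the 4-fold limit.

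The kappa, omega and mu classes lay toward liver. GSTK1 (LOC100521480), the kappa enzyme of mitochondria and peroxisomes, had 186 CPM in liver against 5.92 in brain, 31.4-fold higher in liver (27.3 to 36.2). GSTO1, an omega enzyme that reduces dehydroascorbate, had 91.5 CPM in liver against 0.687 in brain, 133-fold higher in liver (89.3 to 208). A second omega row on an unplaced scaffold, LOC100623842, had 21.7 CPM in liver against 0.286 in brain, 75.9-fold higher (40.9 to 159). The mu-class row LOC100514231, named Mu 5-like in the table and GSTM3 in RefSeq, had 107 CPM in liver against 13.6 in brain, 7.82-fold higher (7.08 to 8.65). The mu-class row with the fewest counts, LOC100156976, had 24 counts in liver and 3 in brain.

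All 3 theta-class genes, neighbours on chromosome 14, were called higher in liver. GSTT1 had 49.5 CPM in liver against 7.47 in brain, 6.64-fold higher in liver (5.79 to 7.63), and the theta-1-like row beside it, LOC100154313, had 21.1 against 2.17, 9.69-fold higher (7.59 to 12.5). The theta-4-like row, LOC100151901, had 439 counts in liver and 1 in brain, so that its ratio of 711 has an interval from 127 to 28126. GSTT1, LOC100154313 and GSTM3 lost their calls with plain library size, at log2 ratios of 1.54, 1.87 and 1.81. Of the membrane-bound microsomal enzymes, which take part in leukotriene synthesis, MGST3 had 38.3 CPM in liver against 28.6 in brain. TMM gave it a log2 ratio of 0.41, plain library size one of -0.67, and leaving out the 50 highest genes one of -0.04. The 2 rows for MGST2 had 149 and 45 counts in liver against 18 and 2 in brain, and only the first, LOC100513365, was called (log2 ratio 2.38, and 1.70 with plain library size).

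**Figure D2:**
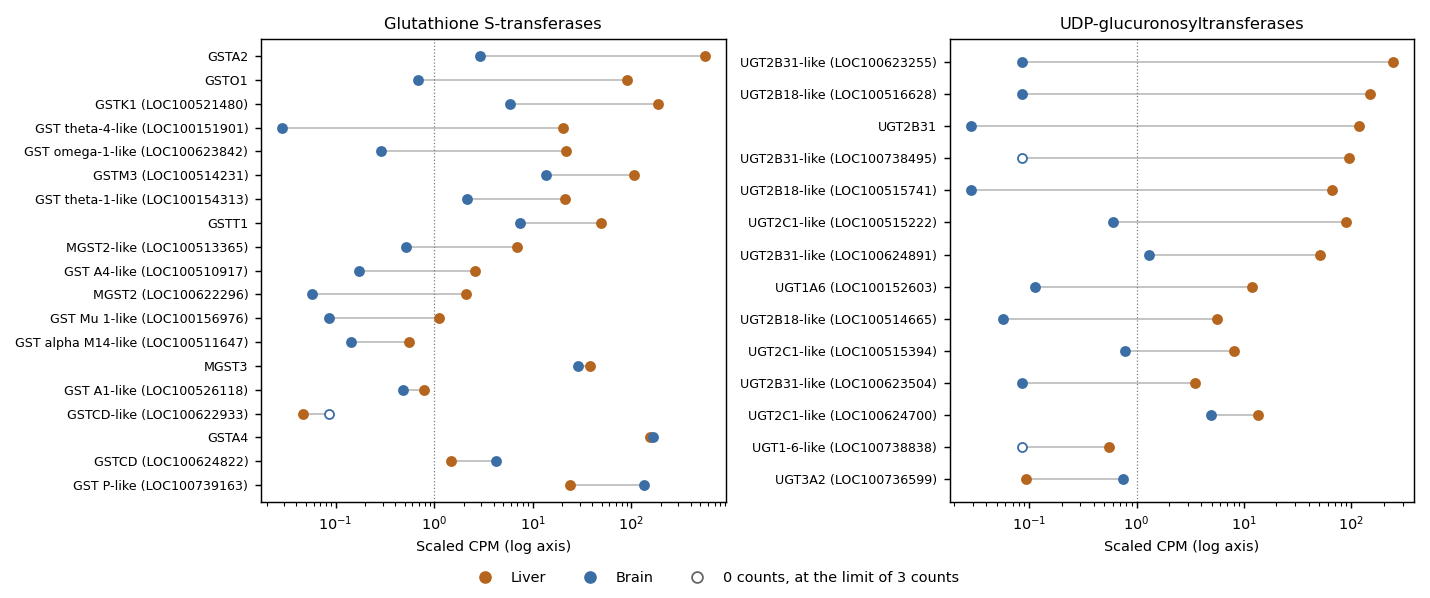
Scaled CPM on a log axis of every GST (left) and UGT member (right), ordered by log2 ratio, with liver in brown and brain in blue joined by a line; open circles mark 0 counts, drawn at the value of 3 counts, and the dotted line is 1 CPM. GSTA4 and MGST3 have nearly the same level in both tissues and GST P-like lies higher in brain, while 11 of the 14 UGT genes were called higher in liver.

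UDP-glucuronosyltransferases set the tissues furthest apart of the 3 families. Together they had 857 CPM in liver against 8.90 in brain, 96.3 times as much (86.1 to 108), and held 0.0584% of the liver library against 0.00131% of the brain library. All 8 rows of the UGT2B subfamily, which glucuronidates steroids and bile acids, were called higher in liver, though LOC100623504, with 75 counts in liver and 3 in brain, lost its call with plain library size (log2 ratio 1.58). LOC100623255 (2B31-like) had 5307 counts (246 CPM) in liver against 3 in brain, a ratio of 2863 (979 to 13888). LOC100516628 (2B18-like) had 3230 against 3, a ratio of 1743 (596 to 8454). UGT2B31 had 2568 against 1, a ratio of 4156 (745 to 164224). LOC100738495 (2B31-like) had 2037 counts in liver and 0 in brain, and was 1099-fold higher in liver with a floor of 3 counts in place of 0, which is no lower bound. Their brain counts thus stood at 0 to 3, whereas 46 brain counts fell on LOC100624891 (2B31-like), with 1096 in liver, 38.6 times the brain level (28.7 to 53.0). The brain counts of LOC100623255 and UGT2B31 were 0.0565% and 0.0389% of their liver counts, and those of LOC100624891 were 4.20%. The hepatocyte markers stood at 0.0262% (ALB) to 0.0473% (CPS1), apart from APOA1 at 3.40%.

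UGT2C genes were less one-sided. LOC100515222 (2C1-like) had 88.8 CPM in liver against 0.601 in brain, 148-fold higher in liver (96.4 to 239), and LOC100515394 had 8.01 against 0.772, 10.4-fold higher (6.89 to 16.2), with a log2 ratio of 2.35 that was 1.60 by plain library size, inside the limit. The third, LOC100624700, had 289 counts in liver against 174 in brain, with a log2 ratio of 1.27 that lay below the 4-fold limit. That row alone held 55.9% of all UGT counts in brain and 1.56% of those in liver. LOC100152603, named UGT1A6 in RefSeq, had 254 counts in liver and 4 in brain, 103-fold higher in liver (39.6 to 380). The UGT1 locus of mammals makes several enzymes, among them the bilirubin transferase, from alternative first exons, and whether this row covers all of them could not be checked here. UGT3A2 (LOC100736599), whose human form uses sugars other than glucuronate, had 2 counts in liver and 26 in brain and stayed below 1 CPM in both.

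Most of the family lies in 1 cluster on chromosome 8, where the table numbers 10 of these UGT rows and a SULT1B1-like row between gene13013 and gene13029. Of these 11 rows, 10 were called higher in liver, and they summed to 861 CPM in liver against 8.07 in brain. Within the same numbering stand UGT2B4 and UGT2A1, whose product text is spelled without the hyphen and which are therefore no members. UGT2B4 had 1491 counts in liver and 6 in brain, and UGT2A1 had 3265 and 13. Their ratios of 402 (184 to 1098) and 406 (237 to 764) lie within the range of the UGT2B members. UGT2B genes are closely related copies, so the division of reads among these rows is uncertain. With rows of the same product summed, a setting chosen after seeing the data, 4 of 4 products at the filter were called higher in liver and 0 in brain.

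Cytosolic sulfotransferases reached 653 CPM in liver against 160 CPM in brain, 4.08-fold higher in liver (3.96 to 4.21). SULT2A1, which sulfates dehydroepiandrosterone and bile acids, had 5054 counts (234 CPM) in liver against 4 in brain, 2045-fold higher in liver (798 to 7508). LOC100623441 (1C4-like) had 183 CPM in liver against 6.01 in brain, 30.4-fold higher (26.5 to 35.1), and SULT1A1, the phenol enzyme, had 111 against 3.72, 29.7-fold higher (24.9 to 35.8). LOC100152150 (amine sulfotransferase-like) had 94.2 against 0.915, 103-fold higher (72.6 to 151). The SULT1B1-like row LOC100624541, of a subfamily known for sulfating thyroid hormone, had 419 counts in liver against 4 in brain. The other 1C rows, LOC100623656 and LOC100623541, neighbours of the 1C4-like row on chromosome 3, had 140 and 94 counts in liver against 6 and 2 in brain.

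A single cytosolic member, SULT4A1 (LOC100523243), was called higher in brain. It is a conserved neuronal member of the family with no established substrate. It had 2 counts in liver against 5068 counts (145 CPM) in brain, a brain over liver ratio of 1566 with an interval from 433 to 12932. It held 90.8% of the cytosolic sulfotransferase counts in brain, against 0.0142% of those in liver, so the summed brain level of the group rests mostly on it. SULT2B1, which sulfates cholesterol and pregnenolone, had 10 counts in liver against 121 in brain. TMM put it at a log2 ratio of -1.61, inside the limit, but it lay past it at -2.21 with plain library size and at -2.23 when the 50 highest genes were left out.

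Golgi sulfotransferases reached 402 CPM in liver against 652 CPM in brain, 1.62-fold higher in brain (1.58 to 1.66). Sulfotransferases together were 1.30-fold higher in liver (1.28 to 1.32), and this summed ratio was below 1 under 2 other scalings, at 0.602 with plain library size and 0.942 when the 50 highest genes were left out. On heparan sulfate, 7 of the 12 genes at the filter were called higher in brain (58.3%) and 1 higher in liver (8.33%). Of all genes, 14.6% were called in brain and 11.3% in liver. The enzymes of 3-O-sulfation, the rarest modification of the chain, made up 4 of the 7 called in brain. HS3ST4 had 8 counts in liver against 4154 counts (119 CPM) in brain, 321-fold higher in brain (163 to 744). HS3ST6 had 0.463 CPM in liver against 20.9 in brain, HS3ST1 (LOC100628223) had 1.02 against 23.9, and HS3ST2 had 1.44 against 27.4, so that these 3 were 45.1-fold, 23.5-fold and 19.1-fold higher in brain.

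The paralogue HS3ST3A1 (LOC100625836) went the other way, with 221 counts in liver against 35 in brain, higher in liver with an interval of 7.13-fold to 15.0-fold. The log2 ratio of 2.49 under TMM became 1.69, below the limit, with plain library size. The 6-O enzymes were split by paralogue. HS6ST2 (LOC100153213) and HS6ST3 (LOC100620744) had 1 liver count each against 279 and 367 brain counts, while HS6ST1 (LOC100156717) had 11.7 CPM in liver against 14.8 in brain. NDST3, 1 of the enzymes that remove acetyl groups and add the first sulfate, had 1.90 CPM in liver against 23.2 in brain, 12.2-fold higher in brain (8.93 to 17.2), and NDST2 had 14.7 against 8.10. NDST2 had a log2 ratio of 0.79 under TMM and of -0.23 under plain library size. HS2ST1, the single 2-O enzyme, had the most liver counts of all Golgi members, 3696 (171 CPM) in liver against 2049 (58.6 CPM) in brain. Its log2 ratio of 1.53 was below the limit, its ratio was 2.92 (2.77 to 3.08), and its log2 ratio with plain library size was 0.43. NDST4 had 10 counts in liver and 83 in brain, with a log2 ratio of -1.21 inside the limit and a plain fold of 5.13 toward brain (2.65 to 11.1).

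Among carbohydrate sulfotransferases of other chains, 4 of 11 at the filter were called higher in brain (36.4%) and 1 higher in liver (9.09%). The shares of all genes were 14.6% and 11.3%. CHST10, which adds sulfate to the HNK-1 epitope of neural adhesion molecules, had 78 counts (3.61 CPM) in liver against 4048 (116 CPM) in brain, 32.1-fold higher in brain (25.6 to 40.7). CHST2 (LOC100626514), which sulfates N-acetylglucosamine, had 6.62 CPM in liver against 103 in brain, 15.5-fold higher (13.2 to 18.5). CHST1 (LOC100519885), of keratan sulfate, had 12 counts in liver against 545 in brain, 28.1-fold higher (15.9 to 54.6). CHST9 had 26 against 325 and a log2 ratio of -2.22, just past the limit. Chondroitin 4-O enzymes differed from one another. CHST13 (LOC100519444) had 1167 counts (54.0 CPM) in liver against 59 (1.69 CPM) in brain, higher in liver with an interval of 24.6-fold to 42.3-fold. CHST12 (LOC100524793) had 2.04 CPM in liver against 5.98 in brain and was not called (log2 ratio -1.20). CHST11 (LOC100157186) had 4 and 27 counts and did not pass the filter. CHST14, of dermatan sulfate, and CHST15, which adds a second sulfate to chondroitin, had log2 ratios of 0.87 and 1.07, and of 0.08 and 0.06 with plain library size.

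The remaining Golgi members act on galactose and on protein tyrosines. GAL3ST3 (LOC100522179) had 0 counts in liver and 458 (13.1 CPM) in brain. With the same floor of 3 counts in place of 0 it was 94.3-fold higher in brain, which is no lower bound. The tyrosine sulfotransferases pointed in opposite directions. TPST1 had 1876 counts (86.9 CPM) in liver against 643 (18.4 CPM) in brain, 4.72-fold higher in liver (4.32 to 5.17), and TPST2 had 134 (6.20 CPM) against 506 (14.5 CPM), 2.33-fold higher in brain (1.92 to 2.84). Scaling decided both calls. With plain library size the log2 ratios were 1.10 for TPST1, inside the limit, and -2.09 for TPST2, beyond it, against 2.18 and -1.10 with TMM.

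**Figure D3:**
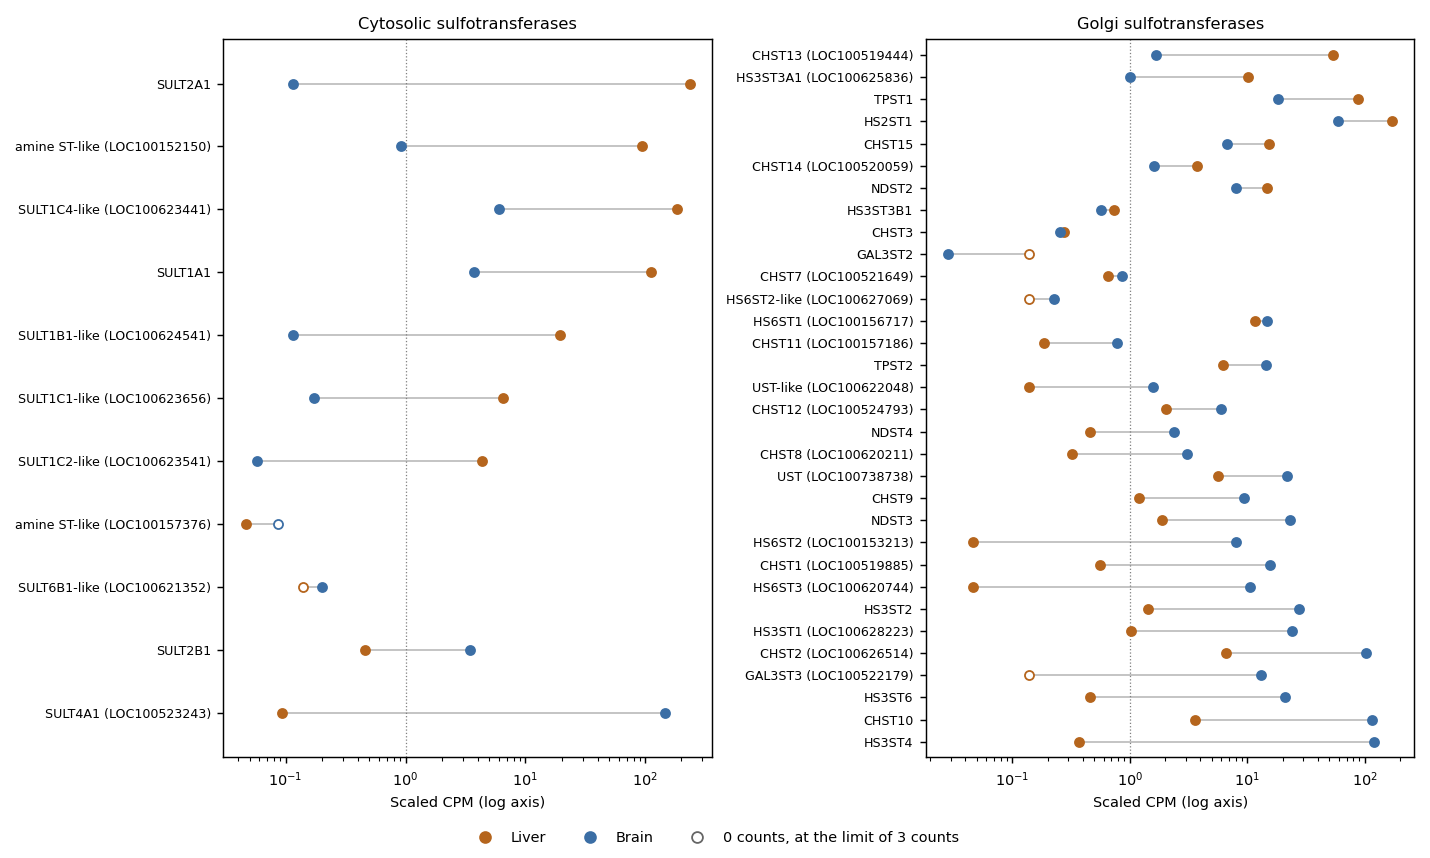
Scaled CPM on a log axis of every cytosolic (left) and Golgi sulfotransferase (right), ordered by log2 ratio, with liver in brown and brain in blue joined by a line; open circles mark 0 counts, drawn at the value of 3 counts, and the dotted line is 1 CPM. SULT4A1 is the only cytosolic member called higher in brain, while 12 Golgi members were called in brain and CHST13, HS3ST3A1 and TPST1 in liver.

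The members that held the counts differed between the tissues. Of GST counts, GSTA2 held 43.2% in liver and 0.783% in brain, GSTA4 held 12.1% and 45.2%, and the pi-class gene held 1.87% and 36.6%. Of UGT counts, LOC100623255 held 28.7% in liver and 0.965% in brain. Of Golgi sulfotransferase counts, HS2ST1 held 42.6% in liver and 8.99% in brain, while HS3ST4 and CHST10 held 0.0922% and 0.899% in liver against 18.2% and 17.8% in brain. These are shares of counts, not corrected for transcript length, because the lengths in the table are genomic spans. They therefore describe where reads fell and give no order of transcript abundance between genes.

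**Figure D4:**
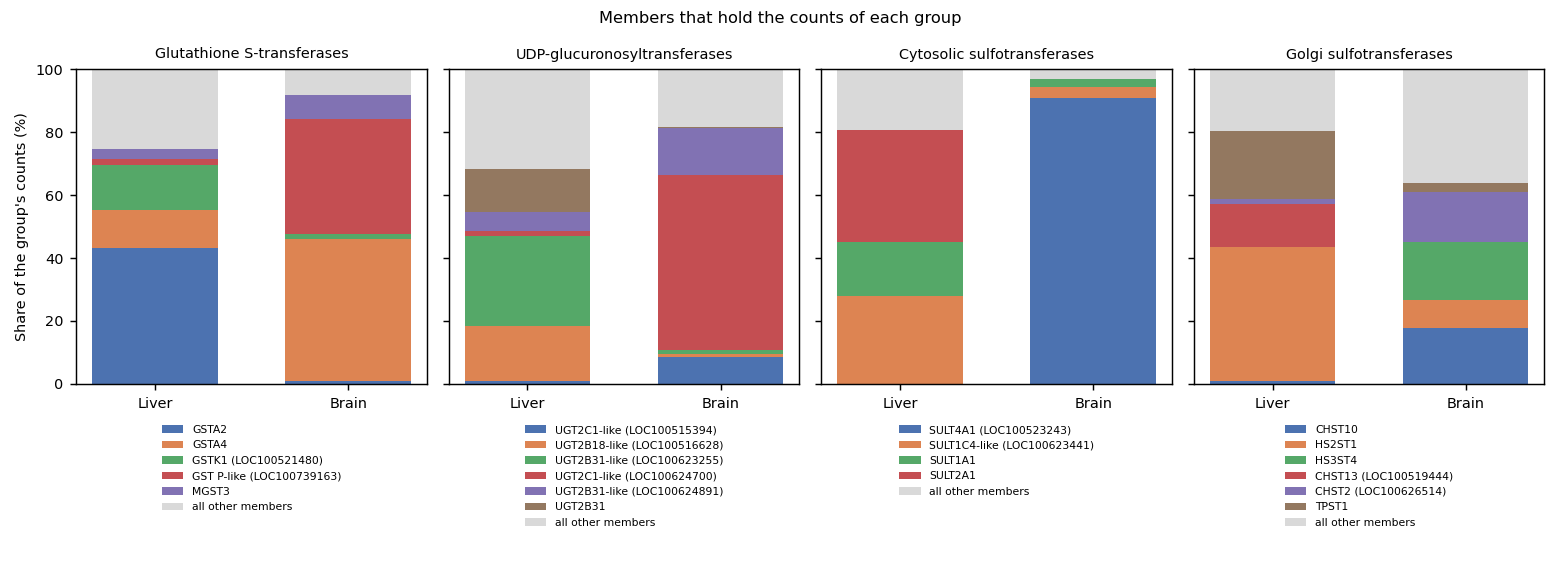
Each bar splits the counts of 1 group in liver (left bar) or brain (right bar) among its members, in percent of the group's counts; the 3 members with the most counts in each tissue have a colour and all others are grey. GSTA2 (43.2%) in liver stands against GSTA4 (45.2%) and GST P-like (36.6%) in brain, and SULT4A1 holds 90.8% of the cytosolic sulfotransferase counts in brain.

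Some members lay close to a limit or below it. The nearest called members were LOC100623504 (UGT2B31-like) at 2.04, TPST1 at 2.18 and CHST9 at -2.22, and the nearest not called were UST (LOC100738738) at -1.76, CHST8 (LOC100620211) at -1.63 and the GST A4-like row LOC100510917 at 1.62. The 13 members below 1 CPM in both libraries were 3 GST, 2 UGT, 2 cytosolic and 6 Golgi sulfotransferase rows. The nearest to the filter were CHST7 (LOC100521649), at 0.648 CPM in liver against 0.858 in brain, and the GST A1-like row LOC100526118, at 0.787 against 0.486, with 17 counts in each. LOC100156976 was just above it at 1.11 CPM in liver. Second rows of UST and HS6ST2 had 3 and 0 counts in liver against 55 and 8 in brain, on the same side as the first rows.

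Genes that supply or follow conjugation were read from 6 lists with 57 symbols. Of the glutathione synthesis and recycling genes, 3 of 8 at the filter were called higher in liver and 1 in brain (median 1.36). GCLC, the catalytic subunit of the limiting enzyme, had 97.5 CPM in liver against 23.3 in brain (log2 ratio 2.02), and its modifier subunit GCLM had 5.65 against 5.72. GSR, which restores reduced glutathione, was 7.10-fold higher in liver (5.86 to 8.65), and CHAC1, which degrades glutathione, had 4 counts in liver against 299 in brain. GLRX and GSS, well counted in both, had log2 ratios of 1.20 and 1.52. After the transferase, mercapturates are formed by removal of glutamate and glycine and by acetylation. In the list for this stage, whose genes are not limited to these steps, 4 of 8 were called in liver and 2 in brain (median 2.10). The glutamyl transferase GGT1 had 42.7 CPM in liver against 1.69 in brain and its relative GGT7 had 1.99 against 35.0. ACY1, ANPEP and the acetyltransferase NAT8 were 10.7-fold, 75.4-fold and 289-fold higher in liver (79.4 to 2395 for NAT8, with 2 brain counts), while the dipeptidase DPEP2 had 2 counts in liver against 205 in brain.

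For glucuronidation, 4 of 6 supply and cleavage genes were called higher in liver and 0 in brain (median 2.19). UGP2, which makes UDP-glucose, had 363 CPM in liver against 32.7 in brain, 11.1-fold higher (10.4 to 11.8). UGDH, the next enzyme, which makes UDP-glucuronate, had 908 counts in liver against 791 in brain, at 0.87 on the log2 scale under TMM and at -0.21 with plain library size. UXS1, which turns UDP-glucuronate into UDP-xylose for proteoglycans, had 32.8 against 62.6. GUSB, which cleaves glucuronides, had a log2 ratio of 2.01, just past the limit. For sulfation, 3 of 8 genes were called in liver and 1 in brain (median -0.04, and -0.86 with plain library size). PAPSS2, a PAPS synthase, had 109 CPM in liver against 14.6 in brain, 7.43-fold higher (6.75 to 8.19), SUOX, which makes sulfate, was 5.05-fold higher (4.57 to 5.59), and the sulfate carrier SLC26A1 had 416 counts against 5. The Golgi PAPS carriers SLC35B2 and SLC35B3 had log2 ratios of -0.65 and -0.32, BPNT1, which breaks down the used donor, had -0.60, and STS, which removes sulfate from steroids, had 65 counts in liver against 598 in brain, 5.68-fold higher in brain.

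Other conjugating enzymes gave 3 of 5 genes in liver and 0 in brain (median 2.24). NNMT, the nicotinamide methyltransferase, had 122 CPM in liver against 0.114 in brain, TPMT and INMT were 5.66-fold and 25.4-fold higher in liver, and HNMT, which inactivates histamine, had 13.4 against 14.3. Of the regulators, 4 of 7 were called in liver and 0 in brain (median 2.90). NR1I2, the pregnane X receptor, had 177 CPM in liver against 2.03 in brain and HNF4A had 2174 counts against 7, while NFE2L2, which controls GST genes under oxidative stress, had 88.0 against 30.7 (log2 ratio 1.49). AHR had 13.8 CPM in liver against 0.973 in brain. With plain library size GCLC (0.93), GUSB (0.94), SUOX (1.19), TPMT (1.25), GSR (1.55), OPLAH (1.70), SLC35D1 (1.73) and PAPSS2 (1.74) had log2 ratios below the limit. CHAC2, ACY3, KYAT1, PAPSS1, BPNT2, NAT1, NAT2, GLYAT, BAAT, ASMT, NR1I3 and RXRA were listed, but no row was found under these symbols. They are therefore in none of the list counts. Each of these lists has few genes, and its count is to be read beside the 11.3% and 14.6% of all genes.

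**Figure D5:**
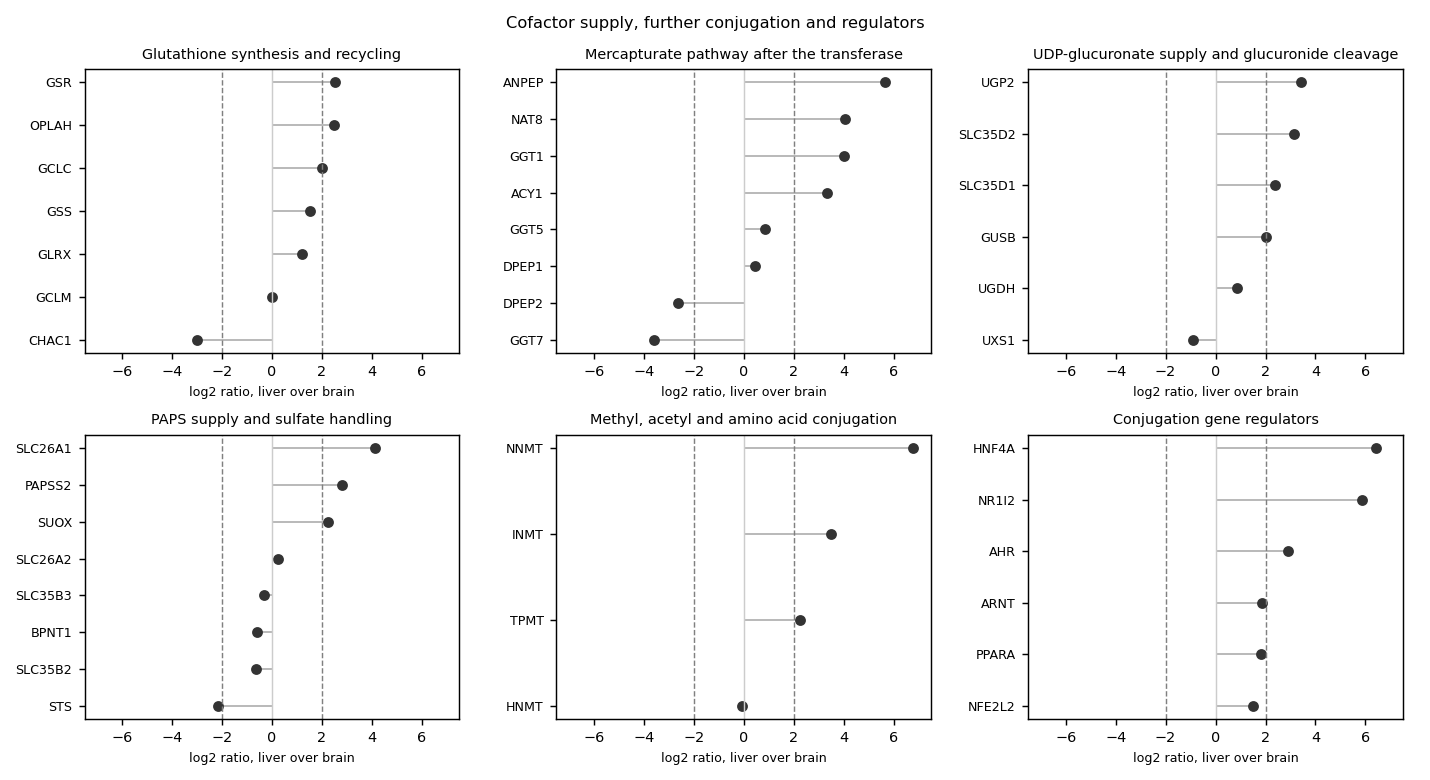
Log2 ratio, liver over brain, of scaled CPM with a pseudocount of 1 for genes at the filter in the 6 lists, 1 panel a list, with dashed lines at the 4-fold limit; some list genes are counted in the text and not drawn. The PAPS list is spread around 0, with SLC26A1, PAPSS2 and SUOX past the limit in liver and STS in brain, while NR1I2, HNF4A and AHR lie past it in liver among the regulators.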

How the data were processed

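RNA of frozen liver and brain was extracted with RNAiso Plus and made into Illumina libraries, per the labels' protocols. The authors deposited 1 table of raw counts per gene row, with 1 column per tissue; that these are counts was read from their whole values and unequal totals. It also holds a deposited length in bp, taken from its size to include introns and left unused. TopHat and the build Sscrofa10.2 (susScr3) are named in the submitters' processing notes. How reads were counted, with strand or without, and how those of near-identical copies were treated is not given in the sources used here, so overlapping and duplicated genes may share reads. The 21817 rows were summed to 21653 names. Of the 76 members 52 carry a LOC name; 41 of these were found by gene number in the RefSeq table of Sscrofa11.1, which gave a symbol to 22 and served for names only. Chromosomes were read from the record of each row.

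TMM factors came from edgeR 4.0.16 under R 4.3.3 (with Python 3.11.15, scipy 1.17.1) and were 0.681 for liver and 1.47 for brain; no test of that package was run. Folds are ratios of scaled CPM with no pseudocount added, and a 95% exact conditional binomial interval was computed for each. A count of 0 was set to a floor of 3 counts, 0.139 CPM in liver and 0.0858 in brain. Amine sulfotransferase-like rows were placed with the cytosolic enzymes. Any member could be named; list genes are the up to 4 with the highest mean level, those called against their list's median, and GCLM, GSR, OPLAH, NAT8, SLC35B3, SLC35D1, STS, INMT and AHR, chosen after their values were seen. Some list genes are counted in their lists and are not reported here by name. Members, lists and settings were chosen with earlier results of these data known. The calls were checked on simulated counts with known folds. Apart from the changed genes, both simulated libraries had the same composition, so this cannot test the scaling of unlike libraries. The closing section gives the effect of other scalings, pseudocounts, filters, folds and row rules.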

Additional observations from a re-analysis of the deposited data

How the results depend on the processing

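No paired analysis was possible because each tissue has 1 library, and for the same reason no replicate could be left out. Of 20 family results (counts called, medians and summed ratios, liver over brain), all 20 held with median-of-ratios scaling and with the highest row per name. No member had more than 1 row, so the highest row per name could act only through the scaling. Median-of-ratios scaling differed from TMM by 0.01 on the log2 scale. Both settings were therefore close to the main one and could change little. The cause of the changes below was not tested. The only sums that changed direction were those of all sulfotransferases, 0.602 by plain library size and 0.942 when the 50 highest genes were left out, against 1.30 with TMM. Other summed ratios with plain library size were 1.61 for GST, 44.6 for UGT, 1.89 for cytosolic and 0.285 for Golgi sulfotransferases, and without the 50 highest genes 2.52, 69.9, 2.96 and 0.447.

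Counts called in liver were 5 GST with plain library size and 5 at 8-fold, 7 UGT with a pseudocount of 5 and 4 of 4 with rows of the same product summed (chosen after seeing the data), and 6 sulfotransferases with a pseudocount of 5 and 6 at 8-fold. For Golgi members they were 1 with plain library size, 1 with a pseudocount of 5, 5 at 2-fold and 1 at 8-fold. Counts called in brain were 2 GST at 2-fold and 0 at 8-fold, and 8 sulfotransferases with a pseudocount of 5 and 20 at 2-fold. For cytosolic members they were 2 by plain library size, 2 when the 50 highest genes were left out, and 2 with a pseudocount of 0.1 and at 2-fold. With a pseudocount of 5, 7 Golgi members were called in brain. Counts that changed by a smaller ratio are left out above. With plain library size, for example, 18 sulfotransferases and 16 Golgi members were called in brain, against 13 and 12 with TMM. In liver that scaling called 7 sulfotransferases and 9 UGT, against 10 and 11. With a pseudocount of 0.1, 12 GST were called in liver, against 9.

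Medians kept their sign. With plain library size they were 1.70 (GST), 3.60 (UGT), -1.77 (sulfotransferases), 3.56 (cytosolic) and -2.14 (Golgi), and without the 50 highest genes 2.19 (GST), 4.35 (UGT) and -1.64 (sulfotransferases). With a pseudocount of 0.1 they were 3.26, 6.39, -1.91, 4.86 and -2.83, and with 5 they were 1.49, 3.48, -0.60, 2.25 and -1.001, in the same order of groups. Without a filter they were 1.62, 3.9995, -0.32, 2.67 and -1.19. At a filter of 5 CPM they were 2.84 (GST), 5.81 (UGT), 4.56 (cytosolic) and -2.64 (Golgi), and with rows of the same product summed 5.74 (UGT). Depth limits members with few counts, such as ratios against 1 to 3 counts, whose intervals span more than an order of magnitude.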
